A study of Mus musculus with 14 samples.

Results

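The response to loss of Thap1 was compared between striatum and cerebellum of C57Bl/6 mice, gene by gene, over all 14 count libraries of the series. Mice with a conditional knockout of Thap1 (cKO) and wildtype (WT) littermates were dissected at 6 months of age, giving 3 striatal libraries per genotype and 4 cerebellar ones. The quantity reported is the cerebellar log2 fold change (cKO over WT) minus the striatal one, called the difference here. A difference above 0 means that a gene stood higher, relative to WT, in cKO cerebellum than in cKO striatum. Of 23337 genes in each file, 13685 were measured well enough in both tissues to be tested. No label used here names the Cre line or the Thap1 exons it removes. Since the labels also do not say whether libraries come from separate animals, p-values describe only how far these libraries spread, part of which may be technical.

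THAP1 is a transcription factor with a THAP-type zinc finger that binds promoters, often together with YY1 and HCFC1, and its mutations cause the dystonia DYT6. The striatum, built mainly of GABAergic projection neurons, and the cerebellum, built mainly of granule cells under Purkinje cell output, are both motor structures affected in dystonia. In the oligodendrocyte lineage, THAP1 is known to be required for timely maturation and myelin formation.

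The 6 striatal libraries totalled between 12595941 and 14258141 reads each, and the 8 cerebellar ones between 19458954 and 28099205. All 8 striatal and all 8 cerebellar marker genes separated the tissues with no overlap between libraries. By Xist and Y-linked reads, each striatal group was 1 male with 2 females, and each cerebellar group was balanced by sex. Striatum WT replicate 1, the male of its group, stood apart. Its chi-square per gene against the other WT striata was 28.6 and 28.2, against 6.79 between those. The number of genes called and several list medians are given with and without it. Values of single genes mostly include it and may depend on it.

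Thap1 itself, on chromosome 8 at 26158141 to 26164151 (GRCm38, plus strand), stood at 13.2, 14.5 and 15.4 CPM (the read count scaled to library size) in WT striatum and at 5.27, 7.65 and 3.79 CPM in cKO striatum. In cerebellum it stood at 10.4, 8.23, 10.6 and 8.40 CPM in WT and at 7.42, 7.51, 7.86 and 6.87 CPM in cKO. In both tissues every cKO library lay below every WT library. The log2 fold change was -1.37 in striatum (SE 0.229, adjusted p = 0.0534), which missed the threshold of 0.05, and -0.34 in cerebellum (SE 0.101, adjusted p = 0.0488). The remaining signal was 38.7% of WT in striatum and 78.9% in cerebellum. The difference between these responses was 1.02 (SE 0.250, 95% interval 0.48 to 1.56) and was not called (adjusted p = 0.210). Leaving out single libraries moved it between 0.81 and 1.31, and DESeq2 alone called it, with an adjusted p of 0.00339. Thap1 overlaps the predicted gene Gm45692 on the same strand, so how reads were split between them is uncertain.

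Of the 13685 genes, 5 differed in their response between the tissues at an adjusted p under 0.05, or 0.0365%. The difference was above 0 for Tomm40l, Zfp658 and 4930506M07Rik (0.0219%) and below 0 for Zfp882 and Fbxo9 (0.0146%). These 5 genes took 3 forms. Tomm40l changed in opposite directions, Zfp882 fell in both tissues but further in cerebellum, and the other three passed the test within 1 tissue. At an adjusted p under 0.1 there were 28 genes (0.205%), 22 above and 6 below 0, and at an unadjusted p under 0.05 there were 1155 (8.44%), of which 688 (5.03%) lay above and 467 (3.41%) below 0. The number called depended on single libraries. It was 60 without striatum WT replicate 1, 2 without WT replicate 3, cKO replicate 1 or cKO replicate 3 of striatum, 3 without striatum cKO replicate 2, and 8 without cerebellum WT replicate 2.

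Tomm40l (chromosome 1, 171216011 to 171222514, minus strand) encodes a relative of TOM40, the pore through which proteins enter mitochondria. In striatum it stood at 51.7, 67.8 and 64.9 CPM in WT and at 21.6, 24.7 and 22.03 CPM in cKO. In cerebellum it stood at 58.4, 64.4, 65.5 and 61.3 CPM in WT and at 76.5, 77.8, 79.0 and 82.2 CPM in cKO. WT and cKO libraries were fully separate in both tissues, as was the case for 15.2% of tested genes in striatum and 14.8% in cerebellum, and the cKO libraries were low in striatum and high in cerebellum. Tomm40l fell to 37.1% of WT in striatum (log2 fold change -1.43, adjusted p = 0.00394) and rose to 126% of WT in cerebellum (0.34, adjusted p = 0.000115). The difference was 1.77 (SE 0.133, 95% interval 1.48 to 2.06, adjusted p = 0.000525). Among 40 genes called in both tissues, 39 changed in the same direction and Tomm40l was the sole exception. It remained called under all 29 alternative settings. The gene overlaps Nr1i3 on the opposite strand, and Nr1i3 did not exceed 0.669 CPM in any library. The strandedness of the counts is unstated, so how reads in the overlap were counted is uncertain.

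Zfp882 (chromosome 8, 71908608 to 71916354, plus strand) encodes a C2H2 zinc-finger protein of little described function. In striatum it stood at 29.7, 24.5 and 23.5 CPM in WT and at 9.38, 11.97 and 13.7 CPM in cKO. In cerebellum it stood at 38.8, 27.2, 35.2 and 28.2 CPM in WT and at 4.91, 4.27, 3.64 and 4.51 CPM in cKO. The genotypes were separate in both tissues, and the cKO cerebella lay below even the cKO striata. Zfp882 fell to 45.0% of WT in striatum (log2 fold change -1.15, adjusted p = 0.0321) and to 13.4% in cerebellum (-2.90, adjusted p = 1.95e-07). The difference was -1.75 (SE 0.216, 95% interval -2.20 to -1.30, adjusted p = 0.00106), and 28 of 29 alternatives also called it. Zfp882 overlaps the related zinc-finger gene Zfp617 on the same strand, so how reads were split between them is uncertain. Zfp617 had a log2 fold change of 0.18 in striatum (adjusted p = 0.776) and rose by 0.29 in cerebellum (adjusted p = 0.00759), with a difference of 0.11 that was not called (adjusted p = 0.850).

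Zfp658 (chromosome 7, 43562256 to 43575461, plus strand), another C2H2 zinc-finger gene, stood at 10.1, 7.29 and 8.03 CPM in WT striatum and at 2.47, 2.35 and 2.76 CPM in cKO striatum. The cerebellar values were 28.3, 31.5, 28.3 and 27.3 CPM in WT and 27.3, 30.6, 23.5 and 25.0 CPM in cKO. The genotypes were separate in striatum and overlapped in cerebellum. Zfp658 fell to 29.9% of WT in striatum (log2 fold change -1.74, adjusted p = 0.0107), and its cerebellar value was 92.2% of WT (-0.12, adjusted p = 0.371). The difference was 1.62 (SE 0.213, adjusted p = 0.0227). The call was lost without striatum WT replicate 3 or any single cKO striatum, where the adjusted p ran from 0.102 to 0.307, while the difference stayed between 1.57 and 1.68.

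4930506M07Rik, now named Shtn1 (chromosome 19, 58973356 to 59076100, minus strand), encodes shootin-1, a protein of axon outgrowth and neuronal polarity. Its clone-type symbol lies outside the naming rule, and it was named after its values were seen. It stood at 62.6, 54.9 and 55.3 CPM in WT striatum and at 27.0, 28.2 and 32.6 CPM in cKO striatum, against 36.1, 36.1, 34.2 and 39.0 CPM in WT cerebellum and 37.4, 32.5, 32.3 and 33.9 CPM in cKO cerebellum. The cKO striata were low with no overlap, and the cerebellar groups overlapped. The gene fell in striatum by 0.98 on the log2 scale (adjusted p = 0.0107), and its cerebellar log2 fold change was -0.10 (adjusted p = 0.324), a difference of 0.88 (SE 0.124, adjusted p = 0.0208).

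Fbxo9 (chromosome 9, 78081499 to 78109065, minus strand) encodes an F-box protein, the substrate-binding part of an SCF ubiquitin ligase. It stood at 65.9, 64.2 and 69.4 CPM in WT striatum and at 71.0, 79.3 and 69.5 CPM in cKO striatum. Cerebellar levels were 118, 115, 126 and 130 CPM in WT and 79.3, 80.6, 78.4 and 83.6 CPM in cKO. The cerebellar groups lay far apart, while in striatum the lowest cKO library was level with the highest WT library. Fbxo9 fell to 65.9% of WT in cerebellum (log2 fold change -0.60, adjusted p = 1.74e-07), and its striatal log2 fold change was 0.14 (adjusted p = 0.773). The difference was -0.74 (SE 0.0995, adjusted p = 0.0208). The calls of Fbxo9 and 4930506M07Rik were both lost when any 1 of the 5 striatal libraries other than WT replicate 1 was left out (adjusted p from 0.0600 to 0.307).

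**Figure D1:**
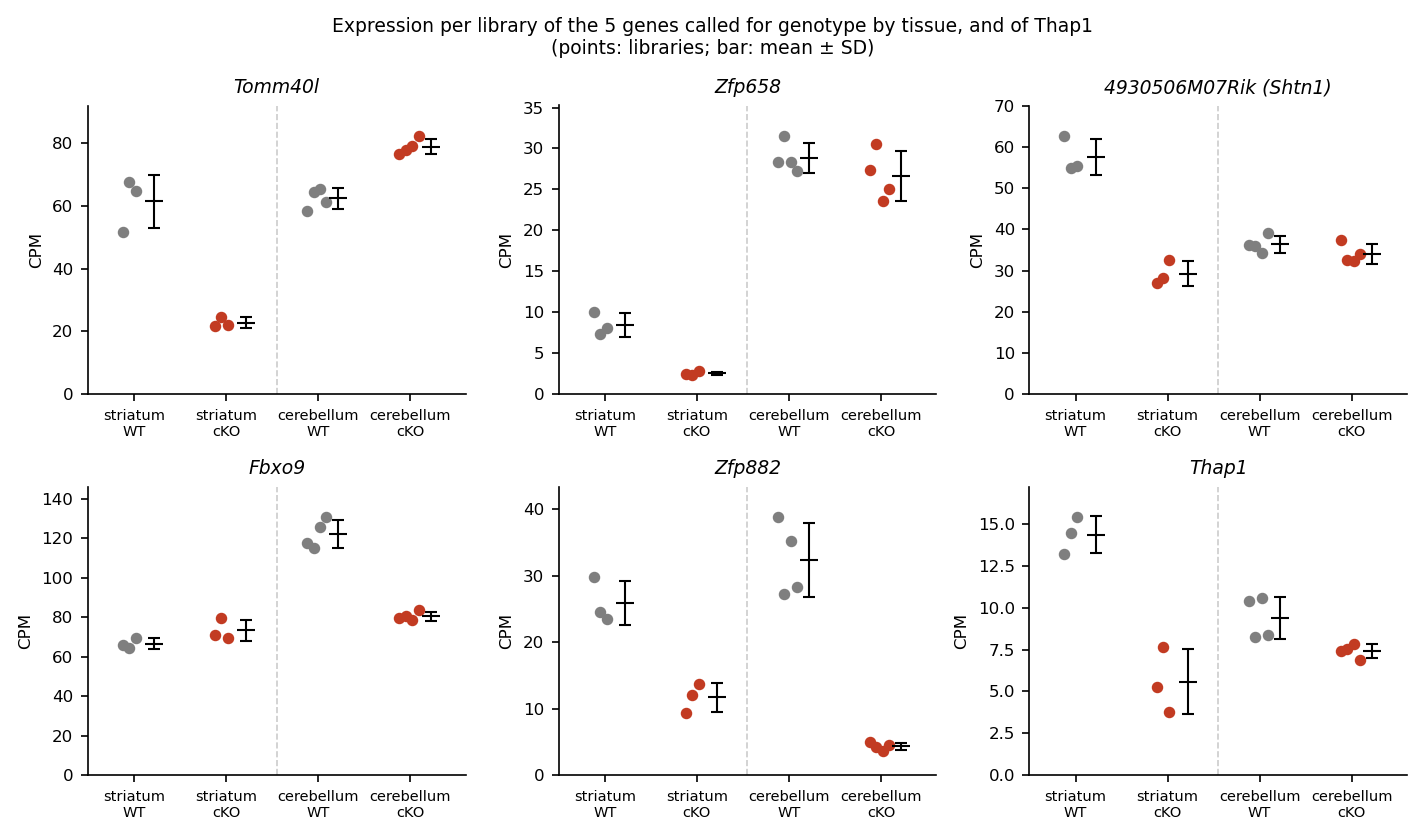
Each panel plots CPM (reads scaled to library size) by library (points) in 4 groups for 1 gene, with the mean and SD beside them, 3 libraries per striatal group and 4 per cerebellar group. Tomm40l cKO libraries sit below WT in striatum and above WT in cerebellum, Zfp658 and 4930506M07Rik separate in striatum, and Fbxo9 separates most in cerebellum.

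Promoters of the called genes that had a window are shown because THAP1 acts by binding promoter DNA. No window was found for Tomm40l or 4930506M07Rik. Windows of 250 bases before to 50 after the transcription start were taken from RefSeq (GRCm38.p6), in which 10676 of the tested genes (78%) matched, including Zfp658, Zfp882 and Fbxo9. Capitals mark matches, on either strand, to the THAP1 motif TNNNGGCA or the YY1 motif AANATGGC.
Zfp658 (chr7:43562120-43562419, plus strand): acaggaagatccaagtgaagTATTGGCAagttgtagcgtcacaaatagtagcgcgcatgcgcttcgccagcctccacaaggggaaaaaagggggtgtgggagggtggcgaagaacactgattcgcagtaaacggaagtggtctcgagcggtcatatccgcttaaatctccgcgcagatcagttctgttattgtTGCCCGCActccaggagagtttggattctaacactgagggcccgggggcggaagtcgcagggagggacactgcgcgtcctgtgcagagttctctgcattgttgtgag
Zfp882 (chr8:71908356-71908655, plus strand): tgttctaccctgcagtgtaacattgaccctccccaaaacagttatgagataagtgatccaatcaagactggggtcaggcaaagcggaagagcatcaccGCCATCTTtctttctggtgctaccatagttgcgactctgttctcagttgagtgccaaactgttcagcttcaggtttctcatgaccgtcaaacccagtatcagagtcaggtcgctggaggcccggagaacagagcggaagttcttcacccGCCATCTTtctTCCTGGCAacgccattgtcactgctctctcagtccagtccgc
Fbxo9 (chr9:78109016-78109315, minus strand): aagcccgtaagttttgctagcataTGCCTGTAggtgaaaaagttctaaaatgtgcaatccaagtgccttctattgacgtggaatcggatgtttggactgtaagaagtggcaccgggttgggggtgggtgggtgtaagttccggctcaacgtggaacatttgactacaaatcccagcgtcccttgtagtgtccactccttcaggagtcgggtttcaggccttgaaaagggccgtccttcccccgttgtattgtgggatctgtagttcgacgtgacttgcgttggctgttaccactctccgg
The Zfp658 window held 2 matches to the THAP1 motif and none to the YY1 motif, the Zfp882 window held 1 THAP1 match and 2 YY1 matches, and this Fbxo9 window held 1 THAP1 match. A second Fbxo9 window in RefSeq (chr9:78108607-78108906), which does not hold the GENCODE start and is not shown, had no match to either motif. Of the 10676 genes with a window, 43.4% had a THAP1 match and 9.44% a YY1 match in at least 1 of their windows. A match is only a run of letters and not a measured site.

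Genes that passed the test within 1 tissue were far more frequent than genes whose response differed between tissues. Among the 13685 genes, 55 were called in striatum (0.402%) and 1105 in cerebellum (8.07%). Of 15 called in striatum alone, 2 had a called difference, Zfp658 and 4930506M07Rik. Of 1065 called in cerebellum alone, 1 had a called difference, Fbxo9. The median size of the cerebellar log2 fold change over those 1065 genes was 0.23. The 95% interval of the difference reached a median of 0.303 to either side. Of the 1065 intervals, 294 lay wholly to 1 side of 0, as did 8.44% of those of all genes tested. These genes were picked by the cerebellar change that also enters the difference, so a larger share can follow from the choice alone. The cerebellar change was larger than the reach of the gene's own interval for 249 of the 1065.

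**Figure D2:**
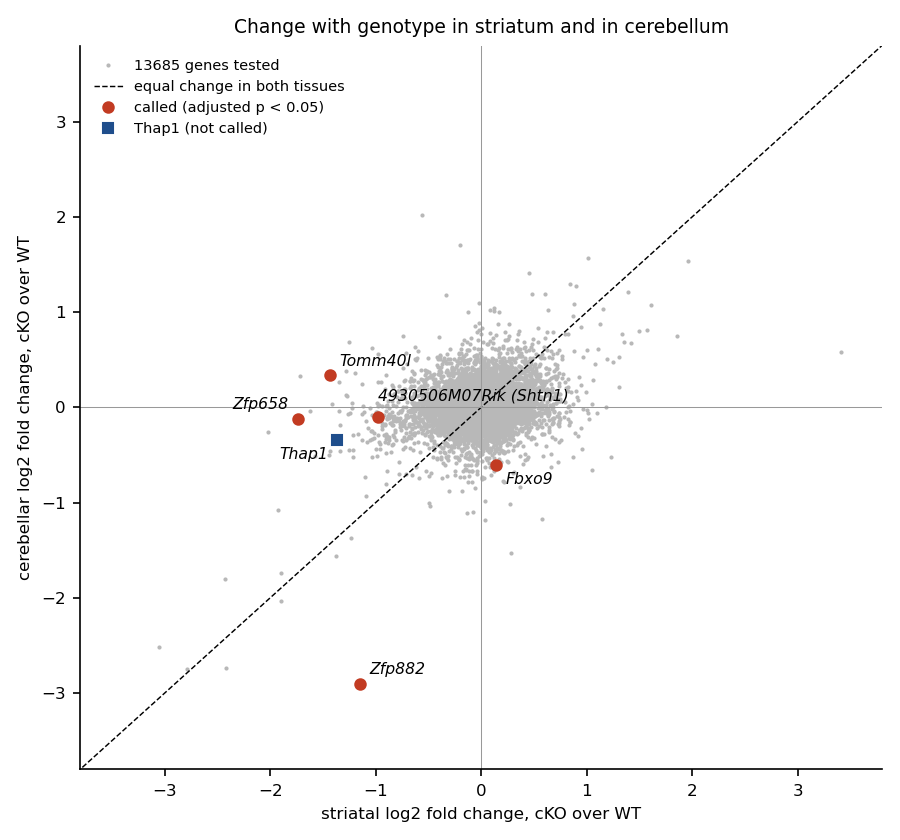
Striatal (x) and cerebellar (y) log2 fold change, cKO over WT, of each of 13685 genes, with the dashed line where both are equal. The 5 called genes lie off that line, and Tomm40l is in the quadrant of opposite directions.

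Fold changes were less precise in striatum than in cerebellum. The median SE of the log2 fold change was 0.139 in striatum and 0.0583 in cerebellum, and the striatal SE was the larger for 95.5% of genes. Striatum contributed a median of 83.6% of the variance of the difference. The common biological coefficient of variation was 0.134 in striatum and 0.0641 in cerebellum. The median 95% interval of the difference extended 0.337 to either side, and the median size of the difference itself was 0.14. When 1 spread was assumed for both tissues in a single edgeR model, 71 genes were called, 48 above and 23 below 0, against 5 when each tissue was fitted apart. The 5 genes were all among the 71. A single edgeR model with dispersion trends by tissue called 23 genes, and limma-voom with weights by tissue called 36. What took the count from 71 to 5 was not tested.

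**Figure D3:**
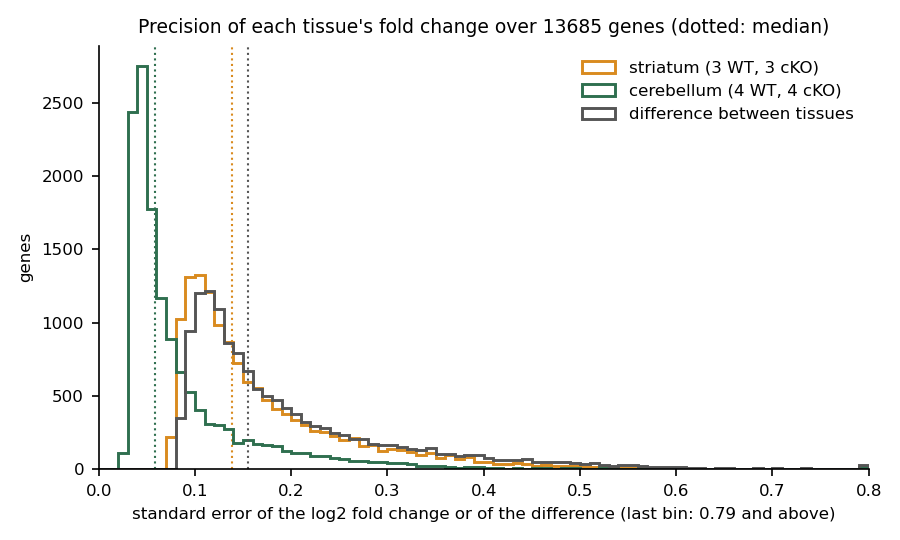
Number of genes (y) by standard error on the log2 scale (x) for the striatal fold change, the cerebellar fold change and their difference, with dotted lines at the medians 0.139, 0.0583 and 0.156. The curve of the difference follows the striatal one.

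The genes next in order of p did not pass the test and are given as values. Above 0 they were Klhl4, Pgm5, Zeb2, Alg12, Mal and Tspan2, with adjusted p from 0.0688 to 0.0918. Pgm5, a phosphoglucomutase relative found at cell adhesions, stood at 8.09, 7.21 and 7.22 CPM in WT striatum and at 5.41, 5.23 and 5.21 CPM in cKO striatum. Its cerebellar levels were 17.1, 17.5, 13.6 and 14.7 CPM in WT and 21.4, 21.7, 23.5 and 23.1 CPM in cKO. The cKO libraries were thus low in striatum and high in cerebellum with no overlap in either, a log2 fold change of -0.51 (adjusted p = 0.424) against 0.52 (adjusted p = 0.000551). Alg12, a mannosyltransferase of N-glycan assembly, had the same arrangement, with log2 fold changes of -0.39 (adjusted p = 0.590) and 0.55 (adjusted p = 0.000120). Klhl4, Zeb2 and Tspan2 fell in striatum, by 0.76, 0.64 and 1.03 on the log2 scale, while their cerebellar values were 0.10, 0.02 and -0.08. Zeb2 is a transcriptional repressor required for oligodendrocyte maturation, and Tspan2 is a tetraspanin of oligodendrocytes.

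Below 0 the uncalled genes next in order included Slc16a11, Synpr, Necab1 and Car10, with adjusted p from 0.0544 to 0.114. Slc16a11, a monocarboxylate transporter, stood at 7.93, 8.33 and 8.03 CPM in WT striatum and at 11.5, 9.85 and 11.4 CPM in cKO striatum. The cerebellar libraries held 72.8, 77.6, 77.0 and 82.7 CPM in WT and 58.9, 58.6, 47.6 and 48.4 CPM in cKO. The cKO libraries were high in striatum and low in cerebellum with no overlap, with log2 fold changes of 0.43 (adjusted p = 0.460) and -0.54 (adjusted p = 0.00100) and a difference of -0.98 (SE 0.157). Synpr, a synaptic vesicle membrane protein, fell in cerebellum from 113, 96.7, 108 and 107 CPM in WT to 46.2, 49.8, 48.4 and 52.6 CPM in cKO (log2 fold change -1.10, adjusted p = 2.17e-09). In striatum it stood at 224, 372 and 304 CPM in WT and 297, 249 and 308 CPM in cKO, and the groups overlapped. Its difference of -1.03 (SE 0.178) had an adjusted p of 0.0967, and the lowest of the striatal libraries was WT replicate 1. Necab1, a neuronal calcium-binding protein, also fell in cerebellum, by 0.88 on the log2 scale (adjusted p = 4.48e-06), against a striatal value of -0.18 (adjusted p = 0.773).

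**Figure D4:**
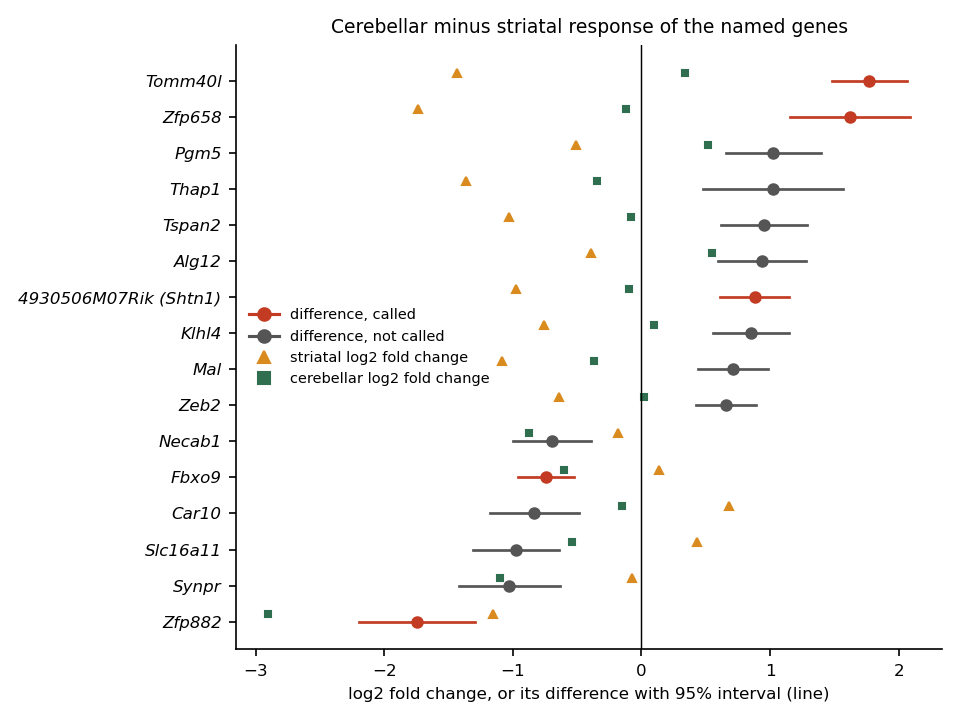
Cerebellar minus striatal difference with its 95% interval (x, log2 scale) for Thap1, the 5 called genes and 10 of those next in order of p, with the log2 fold change of each tissue as small symbols. Intervals of called genes are red, and those of Tomm40l and Zfp882 lie farthest from 0 on either side.

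Genes of myelin, the lipid-rich sheath made by oligodendrocytes, stood lower in cKO than in WT in both tissues, with the larger values in striatum. All 15 listed myelin genes had a difference above 0, with a median of 0.60 against -0.00 over all genes tested, and 14 had an unadjusted p under 0.05, against 5.03% of all genes tested on that side of 0, but none was called. Their median log2 fold change was -0.84 in striatum, where 6 were called lower (0.402% of all genes were called there in either direction), and -0.19 in cerebellum, where 11 were called lower (8.07%). Mal, a proteolipid of compact myelin, stood at 502, 398 and 438 CPM in WT striatum and at 209, 232 and 191 CPM in cKO striatum. In cerebellum it stood at 154, 174, 175 and 162 CPM in WT and at 135, 119, 123 and 138 CPM in cKO. Both tissues showed no overlap, and Mal fell by 1.08 in striatum (adjusted p = 0.00859) and by 0.37 in cerebellum (adjusted p = 0.00109), with a difference of 0.71 (SE 0.125, adjusted p = 0.0918). Ugt8a, which makes the myelin lipid galactosylceramide, had a difference of 0.73 (SE 0.155, adjusted p = 0.179).

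Summed over the myelin list, WT striatum held 7767 to 9576 CPM and cKO striatum 4944 to 6110 CPM, against 5443 to 5992 and 4742 to 5330 CPM in cerebellum. In bulk tissue, fewer oligodendrocytes and less RNA per oligodendrocyte cannot be told apart. Without striatum WT replicate 1 the list's median was 0.48, all 15 differences stayed above 0, and 3 were called, Mal, Ugt8a and Ermn, the last a cytoskeletal protein of the sheath. At that setting 60 of 13793 genes were called, or 0.435%. The median was above 0 under all 29 alternatives, from 0.40 to 0.69. Among the 10 genes of oligodendrocyte precursors the median was 0.19, with 7 above and 3 below 0, from -0.27 for Neu4, a sialidase, to 0.69 for Sox10, the lineage's transcription factor (SE 0.189, adjusted p = 0.304). In the cell cycle list (median 0.18, 16 of 22 above 0) the smallest p belonged to Anln, an actin-bundling protein of cytokinesis that oligodendrocytes also make, with a log2 fold change of -1.03 in striatum and -0.33 in cerebellum (difference 0.70, adjusted p = 0.122).

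Lists of mitochondrial and ribosomal genes had differences below 0 that rested on 1 library. Of 72 respiratory chain genes, 71 lay below 0, with a median of -0.29, of 64 cytosolic ribosomal protein genes 59 (median -0.23), and of 31 proteasome genes 29 (median -0.14), and none was called. The summed respiratory chain level was 5233 CPM in striatum WT replicate 1 and 8660 to 9751 CPM in the other 5 striatal libraries, while cerebellum held 10140 to 10502 CPM in WT and 10475 to 10858 CPM in cKO. The ribosomal sum was likewise 1608 CPM in striatum WT replicate 1 and 3325 to 3741 CPM in the other striata. Without that library the medians were 0.01, 0.08 and 0.01, with 38 of 72, 46 of 64 and 16 of 31 genes above 0. The meningeal list had a median of 0.61, and -0.41 without it. The meningeal sum was 184 CPM in that library and 59.0 and 62.5 CPM in the other WT striata.

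**Figure D5:**
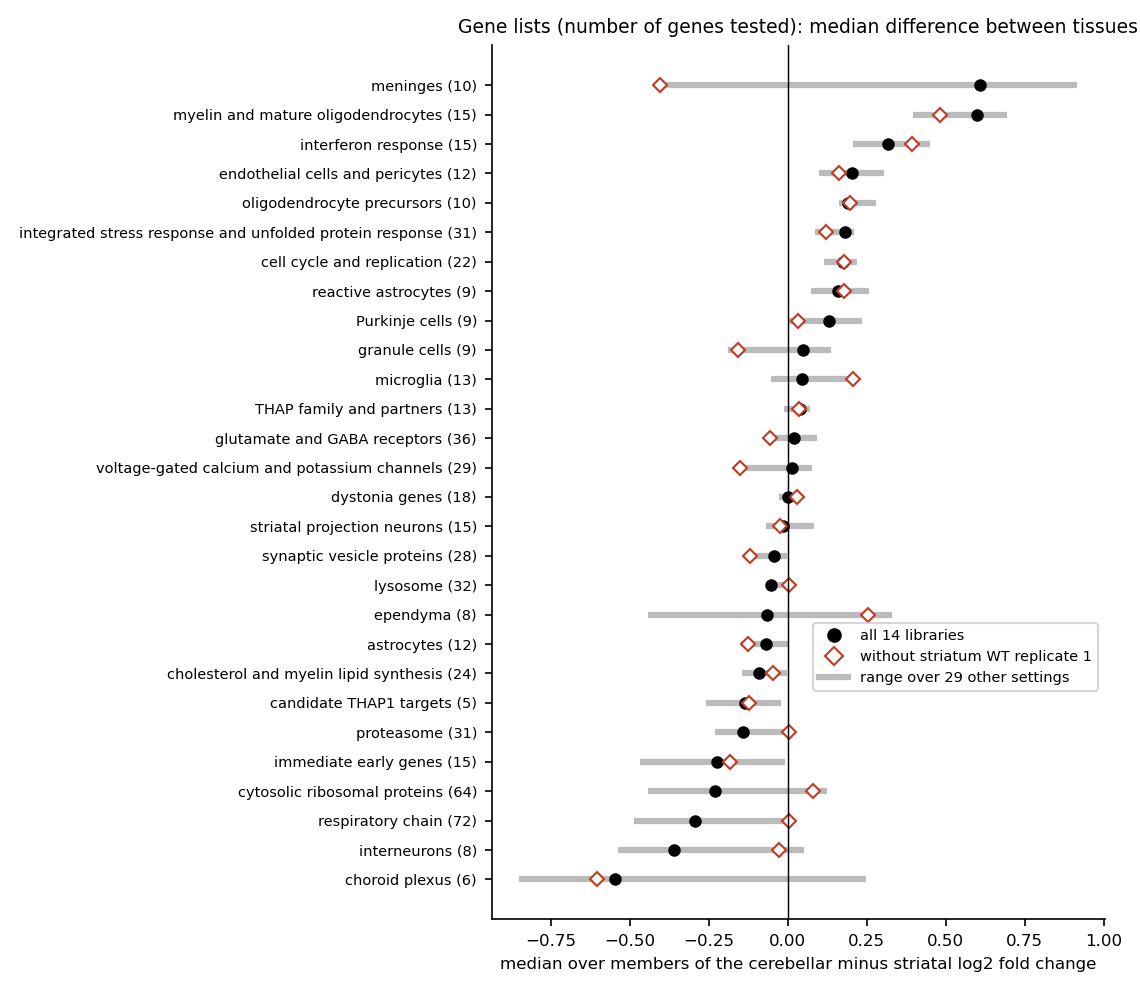
Median cerebellar minus striatal difference (x, log2 scale) for 28 gene lists with the number of genes tested, from all 14 libraries (black), without striatum WT replicate 1 (open diamonds) and as a range over other settings (grey). Myelin stays at 0.40 or above, whereas the respiratory chain, ribosomal, proteasome and meningeal medians move to or past 0 without that library.

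Most neuronal lists had medians near 0. The median was -0.02 for 15 genes of striatal projection neurons, 0.05 for 9 of granule cells, 0.13 for 9 of Purkinje cells, 0.02 for 36 glutamate and GABA receptor genes, 0.01 for 29 calcium and potassium channel genes and -0.04 for 28 synaptic vesicle genes. None of their members was called. Without striatum WT replicate 1 the medians were -0.02, -0.16, 0.03, -0.06, -0.15 and -0.12 in the same order. Kcnc4, a potassium channel, and Synpr and Synpo of the synaptic vesicle list were then called below 0. At that setting 0.435% of all genes tested were called. Synpo is on that list but is not itself a vesicle protein. Kcnc4 and Synpo were named after their values were seen. Genes passing the low-count filter in 1 tissue only were not tested. They were 5 of 20 projection neuron genes, in striatum, and 5 of 14 granule and 3 of 12 Purkinje cell genes, in cerebellum. The projection neuron sum was 20212.5 to 22202.7 CPM in WT striatum and 646 to 746 CPM in WT cerebellum. The granule cell sum was 355 to 520 and 7311 to 8293 CPM in the same groups. Medians near 0 in these lists therefore do not show equal responses of the named cells. Itpr1, the calcium release channel abundant in Purkinje cells, stood at 2277, 1983 and 2022 CPM in WT striatum and at 1702, 1662 and 1872 CPM in cKO striatum. It rose in cerebellum by 0.15 (adjusted p = 0.00452), its striatal log2 fold change was -0.26 (adjusted p = 0.605), and the difference of 0.41 was not called (adjusted p = 0.253). Cacna1e, the R-type calcium channel, fell in cerebellum by 0.66 (adjusted p = 0.00570) against -0.14 in striatum, and its difference of -0.52 was not called (adjusted p = 0.282). Among 8 interneuron genes (median -0.36, and -0.03 without striatum WT replicate 1) Nos1, neuronal nitric oxide synthase, fell in cerebellum by 0.72 (adjusted p = 0.000551) and had -0.11 in striatum (difference -0.61, SE 0.144, adjusted p = 0.160).

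Glial, vascular and stress lists held no called gene. Gfap, the intermediate filament of astrocytes, stood at 75.4, 40.2 and 76.1 CPM in WT striatum and at 182, 250 and 139 CPM in cKO striatum, against 184, 208, 198 and 179 CPM in WT cerebellum and 331, 304, 366 and 346 CPM in cKO cerebellum. Every cKO library lay above every WT library of its tissue. The log2 fold change was 1.57 in striatum (adjusted p = 0.0572) and 0.81 in cerebellum (adjusted p = 1.79e-05), and the difference of -0.76 had an SE of 0.272 (adjusted p = 0.487). Gfap was named for the smallest p of the difference among the 12 astrocyte genes. Their median log2 fold change was 0.07 in striatum and -0.05 in cerebellum, so Gfap does not stand for the list. Medians were -0.07 for 12 astrocyte genes, 0.16 for 9 reactive astrocyte genes, 0.04 for 13 microglial genes, 0.20 for 12 endothelial and pericyte genes, -0.07 for 8 ependymal genes, 0.32 for 15 interferon response genes, 0.18 for 31 stress and unfolded protein response genes and -0.22 for 15 immediate early genes. Single libraries decided some of these. The ependymal median was 0.25 without striatum WT replicate 1 and -0.44 without striatum WT replicate 2, and the immediate early median was -0.01 without striatum cKO replicate 2 and -0.47 without cerebellum cKO replicate 3. Without striatum WT replicate 1 the microglial median was 0.21. The median was -0.05 for 32 lysosomal genes, -0.09 for 24 genes of cholesterol and myelin lipid synthesis, 0.04 for 13 genes of the THAP family and its partners, and -0.00 for 18 dystonia genes.

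The choroid plexus list had the widest spread between libraries. Its sum ran from 43.6 to 2291 CPM in WT cerebellum and from 773 to 3750 CPM in cKO cerebellum, against 37.8 to 57.4 CPM in WT striatum and 50.2 to 198 CPM in cKO striatum. The median over its 6 tested genes was -0.55, and Ttr, the transthyretin of choroid plexus epithelium, had a difference of -2.83 with an SE of 1.64 (adjusted p = 0.670). The median ran from -0.85 (without cerebellum cKO replicate 1) to -0.09 (without striatum cKO replicate 1) when 1 library was left out. How much tissue of the plexus each dissection held, and its part in these values, was not tested.

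Of 5 candidate direct targets of THAP1, none had a called difference. 1110034G24Rik, now named Shld1, stood at 6.37, 8.997 and 8.59 CPM in WT striatum and 1.37, 1.82 and 1.26 CPM in cKO striatum, and at 8.94, 9.37, 9.48 and 10.2 CPM in WT cerebellum and 1.05, 1.48, 1.68 and 1.43 CPM in cKO cerebellum. It fell in striatum by 2.42 (adjusted p = 0.00511) and fell by 2.73 in cerebellum (adjusted p = 2.17e-09), and its difference was -0.31 (95% interval -0.91 to 0.29). Gusb, the lysosomal beta-glucuronidase, fell by 1.24 in striatum (adjusted p = 0.0239) and fell by 1.37 in cerebellum (adjusted p = 1.18e-06), a difference of -0.13 (95% interval -0.56 to 0.29). These intervals bound the differences but do not show equal responses. Psmb5, a catalytic proteasome subunit, fell in cerebellum by 0.78 (adjusted p = 1.84e-05) and had -0.09 in striatum (adjusted p = 0.911), where WT replicates stood at 7.68, 10.6 and 13.8 CPM and cKO replicates at 10.1, 9.40 and 10.7 CPM. Its difference of -0.69 (SE 0.223) was not called (adjusted p = 0.385). Rrm1, the ribonucleotide reductase subunit, and Ccnd3, a G1 cyclin, had differences of 0.07 and 0.06. In a list of 14 genes taken from an earlier analysis of these same libraries, 2 had called differences, Tomm40l and Zfp658, which is not independent evidence.

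Some responses could be measured in 1 tissue only. Among all genes measured in a tissue, 1121 of 14775 were called in cerebellum (7.59%) and 54 of 14080 in striatum (0.384%). Of 1090 genes that passed the low-count filter in cerebellum only, 49 were called there, 10 of them higher and 39 lower in cKO. Of 395 that passed it in striatum only, none was called. For genes that passed in 1 tissue no difference was computed. Myo15, an unconventional myosin of hair cell stereocilia, fell in cerebellum from 8.63, 9.58, 10.6 and 10.9 CPM in WT to 1.91, 1.72, 1.47 and 1.68 CPM in cKO (log2 fold change -2.56, adjusted p = 1.35e-09), and did not exceed 0.274 CPM in any striatal library. Slco2a1, a prostaglandin transporter, fell by 1.21, Il20rb, a cytokine receptor subunit, by 0.89, Ltbp2, a matrix protein that binds fibrillin, by 0.64, and the pseudogene Tmem181c-ps by 0.49 on the log2 scale.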

How the data were processed

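The deposited values were raw read counts by gene symbol. The submitters' processing notes name HTSeq 0.6.1p1, STAR, DESeq2, cutadapt 1.13 and build mm10. Annotation and strandedness are unstated in those notes, so counts of overlapping genes are uncertain.

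Each tissue was fitted apart in edgeR 4.0.16 (R 4.3.3; TMM factors, robust quasi-likelihood, filterByExpr with minimum count 10 and total 15). The difference of log2 fold changes was divided by the root of the summed squared standard errors and referred to a t distribution with Satterthwaite degrees of freedom, with Benjamini-Hochberg adjustment over genes passing in both tissues. Calls within 1 tissue used edgeR's test over the same genes, except for genes measured in 1 tissue only. CPM used TMM factors by tissue.

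The 29 gene lists and named members were chosen with earlier results of these data known. Named genes were Thap1, called genes, those with the smallest p up to 8 per direction (mean CPM of at least 1, no clone-type symbols), the list member with the smallest p, candidate targets, and up to 5 genes measured in 1 tissue. A few genes it selects are not reported here. Positions follow GENCODE vM21 (GRCm38); 2.17% of symbols did not match. Alternatives included limma 3.58.1 and DESeq2 1.42.0. No sample was left out.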

Additional observations from a re-analysis of the deposited data

Results flagged for a closer look

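The 5 genes below responded differently in the 2 tissues by the test of the difference itself, as cerebellar minus striatal log2 fold change: Tomm40l at 1.77, Zfp658 at 1.62, 4930506M07Rik at 0.88, Fbxo9 at -0.74 and Zfp882 at -1.75.

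For 2 of the named genes, 1 cerebellar library stood apart from the other 3 of its group, relative to their spread. Hsp90b1, an endoplasmic reticulum chaperone, stood at 553 CPM in cerebellum WT replicate 1 and at 455 to 462 CPM in the other WT cerebella. Ugt8a stood at 89.7 CPM in cerebellum WT replicate 4 and at 86.3 to 86.6 CPM in the others, a small gap in CPM between closely spaced libraries. Of 88 gene and group combinations examined, all in cerebellum, these were 2, and chance alone gives about 1 in 20. The striatal groups of 3 libraries were not examined in this way. The absence of a striatal library here therefore says nothing about striatum WT replicate 1, which stood apart by its chi-square per gene.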

How the results depend on the processing

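The 5 calls became 71 with equal spread in both tissues, 23 with dispersion trends by tissue, 36 with limma-voom, 232 with DESeq2, 11 with no low-count filter, 10 with sex as a covariate, 34 with each library's exon length trend removed, 27 without the striatal libraries of number 1 in both genotypes, and 28 at an adjusted p under 0.1. All 5 were among the calls in each of these except limma-voom, which held 4 of them and not Zfp658. TMM factors over all 14 samples, upper-quartile factors, DESeq2 size factors and 2 other filters gave 5 or 6. Leaving out 1 library gave 2 to 60. The cause of these shifts was not tested.

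The replicate numbers were not shown to pair samples. Correlations of deviations between same-numbered libraries were 0.05 to 0.14 in striatum, -0.02 to 0.22 in cerebellum and -0.07 to 0.26 between the tissues (number 1 at 0.12 in WT and 0.26 in cKO), and number 2 was female in striatum and male in cerebellum. With a replicate block within each tissue 2 genes were called, Tomm40l and Zfp882, and with a replicate block over tissues 1, Tomm40l. Zfp658, 4930506M07Rik and Fbxo9 lost their calls under both blocks, and each was called in 22 of the 29 alternatives.

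The Thap1 interaction, its difference, was 1.02 with DESeq2 (adjusted p = 0.00339), and 0.81 to 1.31 when 1 library was left out; no other alternative called it (adjusted p from 0.0770 to 0.721). Of the named genes, 2 changed sign, both near 0: Ccnd3 was -0.0157 with the exon length trend removed and ran from -0.0223 (without striatum cKO replicate 2) to 0.125 when 1 library was left out, and was also below 0 without striatum WT replicate 3, and Rrm1 was -0.0247 with the trend removed. Striatum had fewer libraries, fewer reads per library and, with WT replicate 1 included, a larger spread than cerebellum. Their parts in the lower striatal precision cannot be told apart here.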
